A study of Mus musculus with 100 samples.

Results

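The Hox genes are 39 homeobox genes that lie in 4 chromosomal clusters, Hoxa, Hoxb, Hoxc and Hoxd. They were taken here as every gene whose symbol is Hox, a cluster letter from a to d and a number, which gave 39 of the 24206 named genes in the data: 11 in Hoxa, 10 in Hoxb, 9 in Hoxc and 9 in Hoxd. Each gene was represented by its transcript with the highest mean level. Of the 39, 17 reached 1 RPKM (reads scaled by transcript length and library size) in at least 2 of the 80 libraries used and entered the tests. Those described below are Hoxa3, Hoxa4, Hoxa5, Hoxa7, Hoxa10, Hoxb1, Hoxb2, Hoxb4, Hoxb9, Hoxb13, Hoxc9, Hoxc12, Hoxc13, Hoxd8, Hoxd9 and Hoxd13. Another 3 (Hoxa2, Hoxb3 and Hoxd1) reached it in 1 library, and 19 never did.

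The libraries come from V6.5, a hybrid mouse embryonic stem (ES) cell line, in which single subunits of TFIID or Mediator were lowered by a plasmid-borne short hairpin RNA (shRNA) to find the subunits that matter most for global transcription. Cells grown on feeder fibroblasts were depleted of them, received 1.8 µg of plasmid, were given puromycin at 1 µg/ml from 24 h after transfection and stayed under selection for 72 h, so all groups, the controls included, carry a plasmid and passed the drug. There are 100 libraries in 50 groups of 2. Each knockdown was compared with the shControl pair whose label names it. Set A holds shRNAs against 15 TFIID genes (Taf1 to Taf13, with Taf4b, and Tbp) and against Med15, Med16, Med23, Med24 and Med25 of the Mediator tail. Set B holds 23 Mediator knockdowns: 7 of the head module, 8 of the middle, 4 here called upper tail (Med27 to Med30) and 4 of the kinase module (Ccnc, Cdk8, Med12, Med13). It also holds Gcn5 (gene Kat2a) and Usp22 of the SAGA coactivator. Set C holds Med1 and Med14. The labels name no clone, no hairpin sequence and no separate culture for the 2 libraries of a group, so the tests measure only the spread between these libraries, and a knockdown rests on what may be 1 hairpin.

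Hox proteins are DNA-binding transcription factors that give cells along the head-to-tail axis of the embryo their position. Genes at the 3′ end of a cluster (low numbers) are switched on earlier and further forward than those at the 5′ end (high numbers), and equal numbers in different clusters mark paralogs. In ES cells the clusters are held down by Polycomb repressors, and retinoic acid, Wnt signals and Cdx factors open them during differentiation. Mediator links transcription factors with RNA polymerase II, and TFIID, built of Tbp and the Taf proteins, binds the core promoter.

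The stretch before the transcription start is shown for the member with the largest change in any knockdown (Hoxb1), the member with the deepest fall (Hoxa5) and the member that rose in the most knockdowns (Hoxd13). The RefSeq promoter table (build GRCm38.p6) held 22 of the 39 genes, and only the 250 bases before each start were read, 5′ to 3′ along the gene. It held none for Hoxb9 or Hoxc13. Capitals mark matches, on both strands, to TGATNNAT, the joint site of Pbx and anterior Hox proteins, in Hoxb1, and to TATAAA, the TATA box that Tbp binds, in Hoxd13.
Hoxb1, chr11:96365508-96365757, plus strand: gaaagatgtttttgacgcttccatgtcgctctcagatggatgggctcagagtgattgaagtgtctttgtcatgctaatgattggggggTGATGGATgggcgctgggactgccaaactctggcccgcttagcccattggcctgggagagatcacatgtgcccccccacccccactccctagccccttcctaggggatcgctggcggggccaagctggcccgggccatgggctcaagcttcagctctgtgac
Hoxa5, chr6:52204588-52204837, minus strand: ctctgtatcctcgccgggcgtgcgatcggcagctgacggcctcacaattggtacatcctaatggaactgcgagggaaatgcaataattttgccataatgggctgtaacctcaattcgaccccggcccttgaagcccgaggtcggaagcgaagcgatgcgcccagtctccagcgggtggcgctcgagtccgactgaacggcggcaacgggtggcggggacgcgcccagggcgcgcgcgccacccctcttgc
Hoxd13, chr2:74667975-74668224, plus strand: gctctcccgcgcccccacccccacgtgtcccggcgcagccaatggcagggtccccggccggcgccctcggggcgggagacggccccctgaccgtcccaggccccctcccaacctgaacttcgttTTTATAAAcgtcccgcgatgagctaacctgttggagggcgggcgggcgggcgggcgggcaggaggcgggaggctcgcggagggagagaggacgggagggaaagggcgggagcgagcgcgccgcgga

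The match in Hoxb1 begins 162 bases before the start. In Hoxd13 the marked run, which holds a match on each strand that overlap, begins 126 bases before it. These are descriptions of letters, not bound sites. TGATNNAT was present in 4 of the 22 Hox genes (Hoxa2, Hoxb1, Hoxb8, Hoxd11) and in 7.68% of all 32851 promoters in the table. TATAAA was present in 4 of 22 (Hoxa10, Hoxb8, Hoxd4, Hoxd13) and in 12.4% of all promoters. Hoxa5 held no match to TATAAA in this window.

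Depth, the targeted genes and cell type markers were checked over all libraries. The RPKM denominator, recovered from the steps of low values, was 17.25 to 39.325 M reads in the 100 libraries, so 1 read on a kilobase of transcript was worth 0.025 to 0.058 RPKM. Over the 80 libraries a member rested on a median of 85.5 reads for Hoxc13 and 4.0 for Hoxc12. The targeted gene stood at 14.2% to 68.9% of its control mean in the 50 knockdown libraries of set B and at 15.9% to 59.0% in the 20 replicate 2 libraries of set A. It stood at 56.9% to 173.0% (median 102.5%) in the 20 replicate 1 knockdown libraries of set A, which were not used. The 8 ES cell markers were all present in all 80 libraries, with a summed level of 570.0 to 1560.0 RPKM. The 12 fibroblast feeder markers summed to 1.94 to 10.3 RPKM, and Lum and Postn, secreted matrix proteins of fibroblasts, were listed at 0 in 63 and 46 of the 80 libraries. Other feeder markers, Col1a1 and Thy1 among them, were at 0 in no library, and these reached 4.03 and 1.99 RPKM. The library kit keeps strand, but how strand was handled in counting is not given in these sources, so reads of a Hox gene and of its antisense RNAs, common in these clusters, cannot be told apart.

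In the control libraries few Hox genes were above trace levels. The 2 control_B libraries held 2.02 and 1.18 RPKM of Hoxa5, 1.44 and 1.24 of Hoxa3, and 1.30 and 0.771 of Hoxc13, the 5′-most gene of Hoxc. The 22 untested members had control_B means of 0.0201 to 0.431 RPKM. Hoxc13 was above 1 RPKM in 73 of the 80 libraries, Hoxd13 in 55, Hoxa5 in 47, Hoxa3 in 41, Hoxb9 in 27, Hoxd9 in 21, Hoxd8 in 14 and Hoxa7 in 13. The summed level of all 39 was 14.9 RPKM in control_A, 18.4 in control_B and 8.59 in control_C, so the control pairs themselves differed, and values are compared only within a set.

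Lowering Mediator subunits moved Hox genes in both directions. Over the 25 knockdowns of set B, members were called higher in 104 and lower in 41 of 425 gene and knockdown pairs (limma, adjusted p under 0.05), which is 24.5% and 9.65% of pairs, while 15.7% and 15.1% of the pairs of all tested genes were called higher and lower. Because some members entered the tests only through libraries where they were high, all 39 were also fitted with no filter: 155 of 975 pairs were higher (15.9%, with 9.8% for all genes) and 54 were lower (5.54%, with 9.03% for all genes). The C and D clusters gave no lower call, filtered or not: the 6 tested members of Hoxc and Hoxd were higher in 55 pairs and lower in 0. Of these, Hoxc9, Hoxc12, Hoxd8 and Hoxd9 had control_B means of 0.134, 0.119, 0.308 and 0.413 RPKM. With 1 RPKM added before the log, such levels leave little room to fall. The lack of lower calls is therefore not read as a trait of these clusters. Hoxa3, Hoxa4, Hoxa5, Hoxa7 and Hoxa10 were higher in 15 pairs and lower in 30. At least 1 member was called in 22 of the 25 knockdowns, and none in shMed9, shMed18 and shUsp22, where limma adjusted p were all 0.05 or more. At an unadjusted p under 0.05, limma gave 0 higher and 1 lower of 17 in shMed9 (10.2% and 11.4% of all tested genes), 2 and 0 in shMed18 (8.29% and 12.8%) and 1 and 3 in shUsp22 (8.67% and 7.19%). The lower calls rest on the control pair more than the higher ones: without control_B replicate 1 there were 100 higher and 15 lower calls, and without control_B replicate 2 there were 87 and 51. Libraries are bulk RNA, so fewer cells that express a gene and less RNA per cell cannot be told apart.

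**Figure D1:**
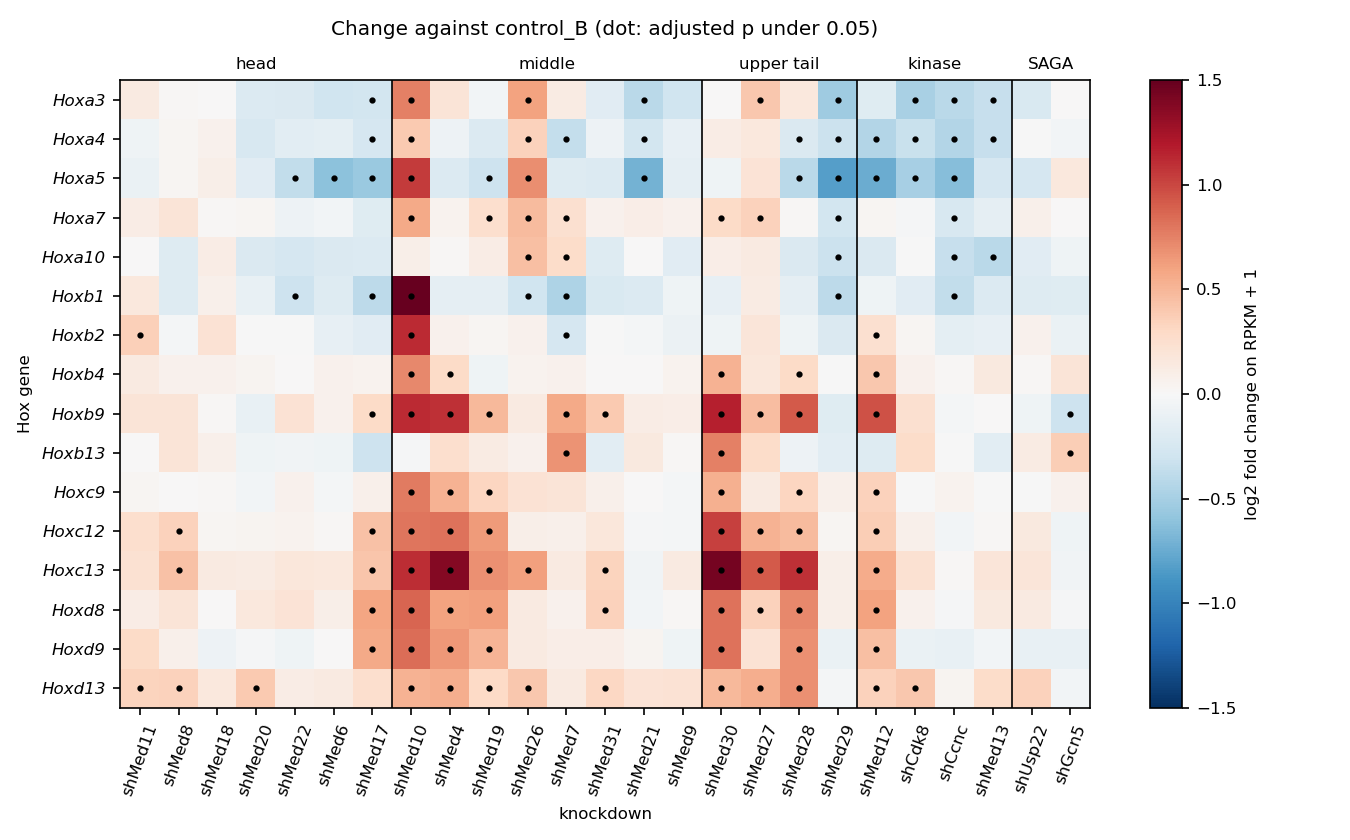
Log2 fold change (on RPKM + 1) of tested Hox genes (rows) in the 25 knockdowns of set B (columns, by module) against control_B; a dot marks an adjusted p under 0.05. The dots of the shMed10 column are all on higher values, the Hoxc and Hoxd rows hold no lower call, and Hoxa3 to Hoxa5 are blue in many columns. Low control levels left several Hoxc and Hoxd genes little room to fall.

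Lowering Med10, a middle module subunit, gave the most Hox calls: 15 of the 17 tested members rose, where 31.2% of all tested genes were called higher and 33.6% lower. With no filter, 30 of the 39 rose and none fell, where 22.4% of all genes were higher. The summed level of the Hoxb cluster was 2.88 RPKM in control_B and 11.6 in shMed10, that of Hoxa 11.4 and 25.5, that of Hoxc 1.79 and 8.1, and that of Hoxd 2.34 and 6.63. The members that did not pass were Hoxa10, with 0.696 and 0.977 RPKM in shMed10 and 0.886 and 0.558 in control_B, and Hoxb13, with 0.640 and 0.343 RPKM in shMed10 and 0.698 and 0.332 in control_B. Both overlapped with the controls.

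Anterior Hoxb genes were among those that rose in shMed10, Hoxb1 the most. Not all of them stood out by size: Hoxa5 and Hoxd8, with log2 fold changes of 1.05 and 0.87, changed more than Hoxb4. Hoxb1, which patterns the hindbrain and in the mouse keeps itself on through Pbx and Hox sites, was at 3.39 and 2.98 RPKM in shMed10 and at 0.601 and 0.371 in control_B. Its log2 fold change was 1.5 ± 0.09 (SE, n = 2 against 2, limma adjusted p = 9.02e-15 with no filter). That fit is quoted because Hoxb1 reached 1 RPKM in the 2 shMed10 libraries only, and so passed the filter through them alone. Hoxb2, another hindbrain gene, was at 1.68 and 1.85 RPKM against 0.256 and 0.288, and it too reached 1 RPKM in no other library, so no p is given. Hoxb4 was at 1.24 and 0.957 RPKM against 0.227 and 0.326 (log2 fold change 0.72 ± 0.08, limma adjusted p = 1.65e-09). Hoxb3, outside the filter, was at 0.935 and 1.18 RPKM against 0.0628 and 0.142. None of these pairs overlapped with the controls, whereas Hoxb5 (0.0233 and 0.109 RPKM against 0.0659 and 0.0530) and Hoxb6 (0.0335 and 0.0785 against 0 and 0.152) did. The calls thus left out genes that lie between called ones.

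Genes at trace level in the controls appeared at the centre of the Hoxc cluster as well. Hoxc6 was at 0.723 and 0.739 RPKM in shMed10 and at 0.0785 and 0.0631 in control_B. Hoxc8, which patterns the thoracic skeleton, was at 0.579 and 0.555 RPKM against 0.0352 and 0.0283, and Hoxc5 at 0.308 and 0.291 against 0.0305 and 0.0123. Control values of this size are worth very few reads, so no fold is given for them. All 3 passed the test with no filter (log2 fold changes of 0.69, 0.60 and 0.35, with limma adjusted p of 3.73e-07, 1.10e-13 and 5.61e-10).

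**Figure D2:**
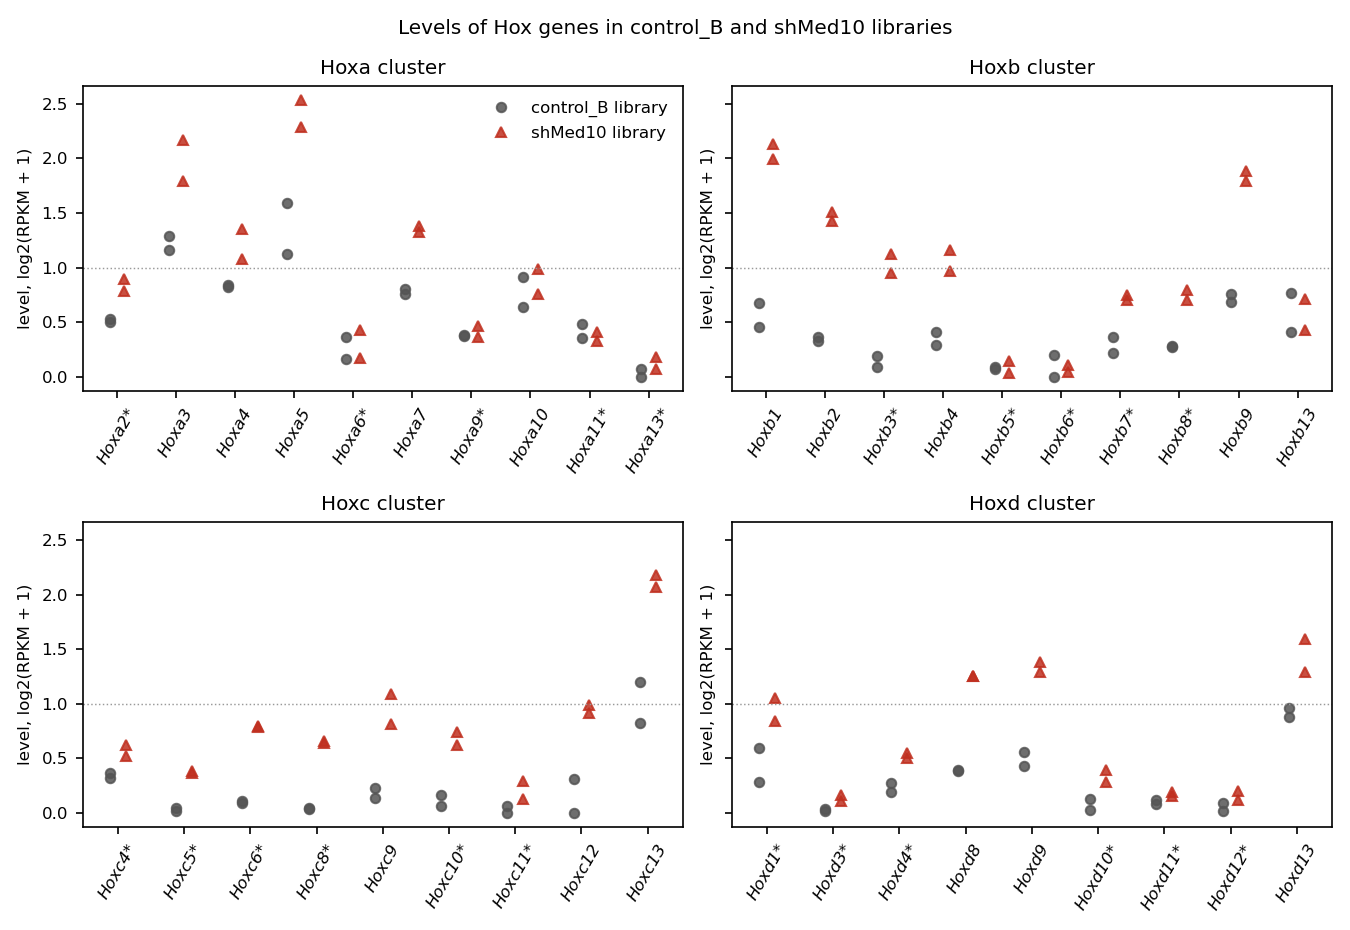
Level, as log2(RPKM + 1), of the Hox genes of each cluster in each control_B library (grey circles) and each shMed10 library (red triangles), by cluster from 3′ to 5′; a star marks genes outside the filter and the dotted line is 1 RPKM. The shMed10 libraries lie above both controls for most genes, with Hoxb1 at 3.39 and 2.98 RPKM, but overlap at Hoxa6, Hoxa9, Hoxa10, Hoxa11, Hoxb5, Hoxb6 and Hoxb13.

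The shMed10 difference was also seen without the control pair. Set against the mean of the 7 other middle module knockdowns in the same fit, 15 of 17 members were higher and none lower (30.9% and 32.5% of all tested genes). Hoxb1 differed most (log2 difference 1.71 ± 0.06, limma adjusted p = 8.99e-19, both with no filter): the 7 others had means of 0.0759 to 0.425 RPKM. Hoxa5 followed with 4.33 RPKM against 0.563 to 3.18 (log2 difference 1.20 ± 0.10, adjusted p = 2.35e-12). This contrast was chosen after the values had been seen. In shMed10 all 8 ES cell markers were lower (summed level 570.0 to 630.0 RPKM against 1260.0 to 1320.0 in control_B), and the feeder markers summed to 9.10 to 9.96 RPKM against 2.93 to 3.23. The part of either in the Hox values was not tested.

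A second pattern, seen in more knockdowns, joined Hoxb9 and the tested members of Hoxc and Hoxd. Hoxc13, known for its role in hair and nail formation, was at 4.60 and 4.30 RPKM in shMed30, 4.30 and 4.21 in shMed4, 3.43 and 3.15 in shMed28 and 1.30 and 0.771 in control_B. It rose in 11 knockdowns and fell in none, with log2 fold changes from -0.05 ± 0.10 in shGcn5 to 1.43 ± 0.10 in shMed30 (limma adjusted p = 2.00e-13). Hoxc12, its neighbour, was at 1.41 and 1.13 RPKM in shMed30 and at 0 and 0.238 in control_B. It rose in 9 knockdowns, with log2 fold changes from -0.06 ± 0.13 in shGcn5 to 1.03 ± 0.13 in shMed30. Hoxc12 reached 1 RPKM in the 2 shMed30 libraries only, and so passed the filter through them alone. Hoxc9, a thoracic gene, rose in 6, from -0.04 ± 0.09 in shMed20 to 0.78 ± 0.09 in shMed10. Among the set B knockdowns Hoxc13 was thus highest in shMed30 and Hoxc9 in shMed10, while the filter itself took in Hoxc12 through shMed30.

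Hoxb9, the paralog of Hoxc9, was at 2.79 and 2.62 RPKM in shMed30, 2.67 and 2.42 in shMed4, 2.31 and 2.10 in shMed12 and 0.694 and 0.608 in control_B. It rose in 10 knockdowns and fell in 1, shGcn5, where it was at 0.324 and 0.330 RPKM (log2 fold change -0.31 ± 0.09, limma adjusted p = 0.00609). Its highest log2 fold change was 1.17 ± 0.09 in shMed30. Gcn5 is the acetyltransferase of SAGA, and shUsp22, against the deubiquitinase of the same complex, left Hoxb9 at -0.07, not called.

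In the Hoxd cluster Hoxd13, a gene of digits and genitalia, rose in 13 of the 25 knockdowns, more than any other member, and fell in none. Its libraries held 2.33 and 1.79 RPKM in shMed28 and 0.839 and 0.945 in control_B, and its log2 fold changes ran from -0.04 ± 0.11 in shGcn5 to 0.69 ± 0.11 in shMed28 (limma adjusted p = 5.11e-06). Hoxd8 rose in 9, from -0.04 ± 0.09 in shMed21 to 0.87 ± 0.09 in shMed10, where both libraries held 1.38 RPKM against 0.305 and 0.311. Hoxd9 rose in 7, from -0.11 ± 0.12 in shCcnc to 0.84 ± 0.12 in shMed10. The untested Hoxd genes stayed under 0.5 RPKM in every library, except Hoxd1, which reached 1.07.

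The middle of the Hoxa cluster moved apart from these genes. Hoxa5, needed for the lung and the neck skeleton, rose in shMed10 (4.79 and 3.87 RPKM) and in shMed26 (3.41 and 2.95 RPKM), against 2.02 and 1.18 in control_B. It fell in 10 knockdowns, and was lowest in shMed29 with 0.382 and 0.501 RPKM (log2 fold change -0.83 ± 0.13, limma adjusted p = 1.3e-05). In shMed12 it was at 0.480 and 0.573 RPKM (-0.75 ± 0.13). The control libraries themselves differed for this gene by more than those of most knockdowns, but the libraries of both knockdowns lay below both of them. Hoxa4 rose in the same 2 knockdowns as Hoxa5 and fell in 9, from -0.44 ± 0.09 in shCcnc to 0.39 ± 0.09 in shMed10. Hoxa3, which patterns pharyngeal organs, rose in 3 and fell in 6, from -0.53 ± 0.11 in shMed29 to 0.76 ± 0.11 in shMed10.

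Hoxa7 rose in 6 knockdowns and fell in 2, from -0.28 ± 0.08 in shMed29 to 0.57 ± 0.08 in shMed10. Hoxa10, best known in the uterus and the lumbar spine, rose in shMed26 and shMed7 and fell in shMed13, shCcnc and shMed29, from -0.41 ± 0.10 in shMed13 to 0.45 ± 0.10 in shMed26. Hoxb1 fell in 6 knockdowns and was lowest in shMed7, at 0.0182 and 0.134 RPKM (-0.46 ± 0.09), where Hoxb2 was at 0.0696 and 0.0639 RPKM (-0.25 ± 0.08). Hoxb2 fell in shMed7 only and rose in shMed10, shMed11 and shMed12. Hoxb4 rose in 5 and fell in none, from -0.06 ± 0.08 in shMed19 to 0.72 ± 0.08 in shMed10. Hoxb13, which lies far from the rest of its cluster, rose in shMed30 (1.88 and 1.23 RPKM), shMed7 (1.44 and 1.35) and shGcn5 (0.982 and 0.905), against 0.698 and 0.332 in control_B, with log2 fold changes from -0.31 ± 0.14 in shMed17 to 0.75 ± 0.14 in shMed30.

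**Figure D3:**
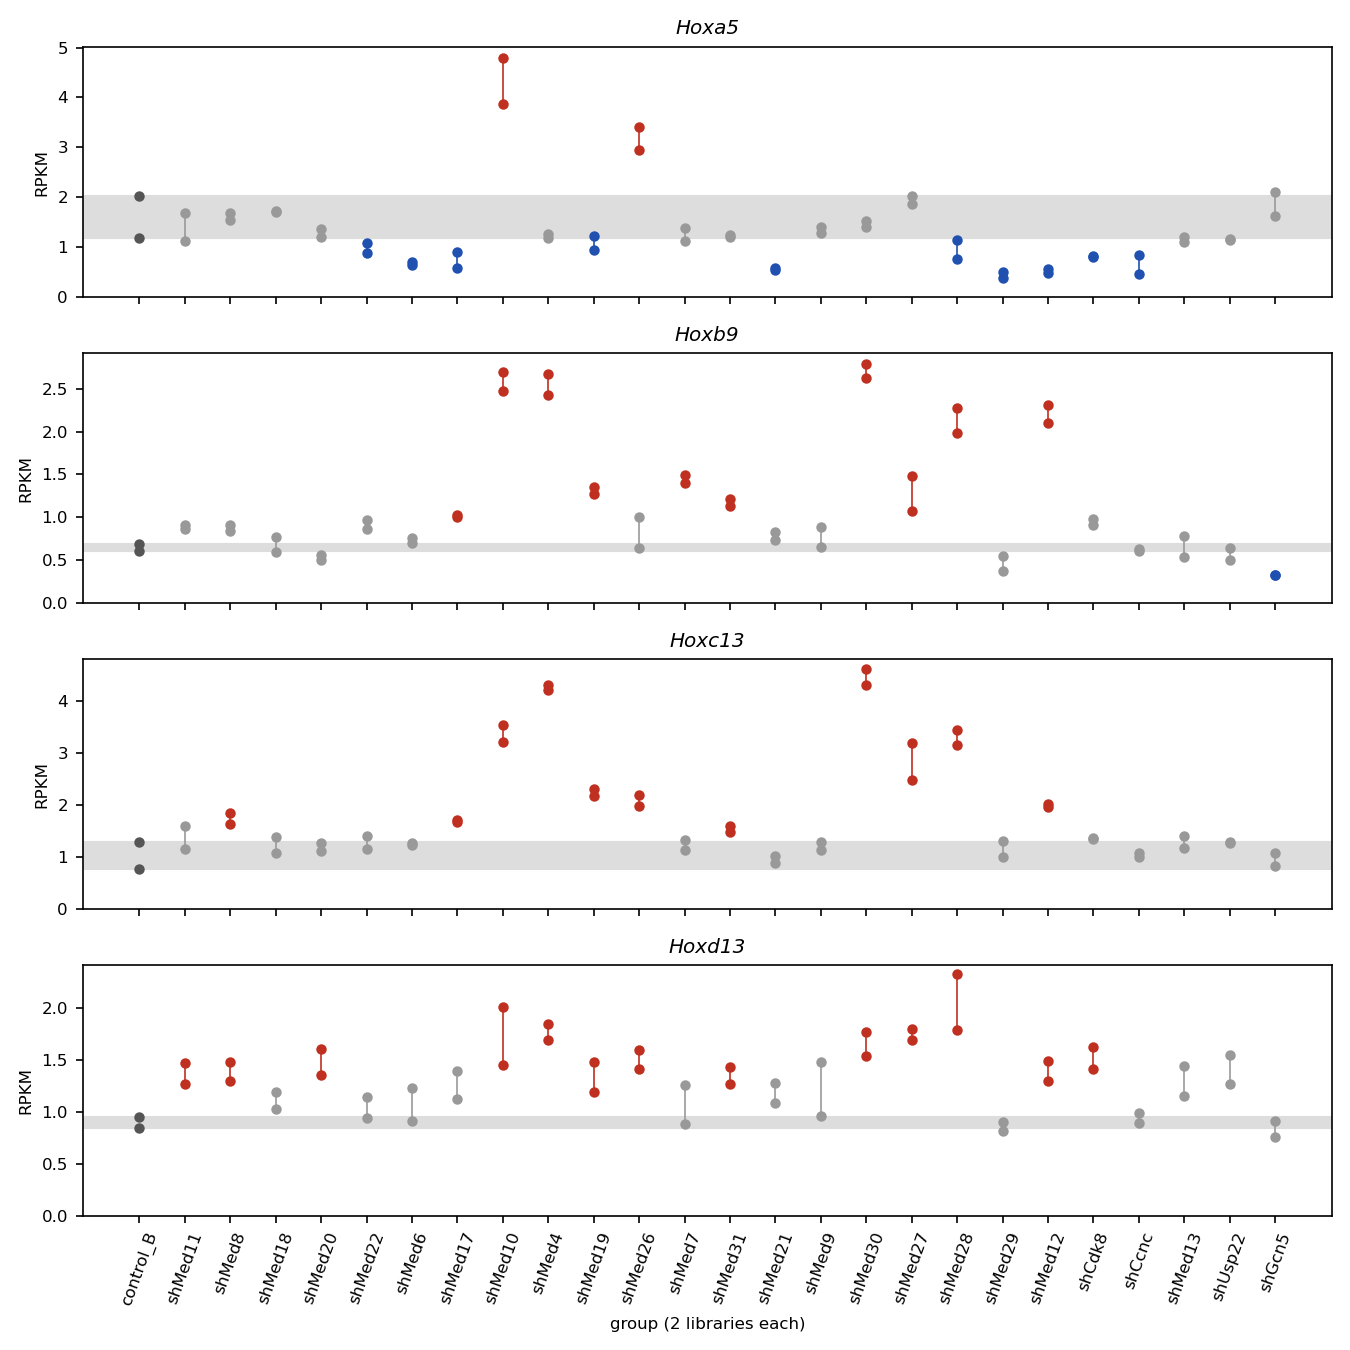
RPKM of Hoxa5, Hoxb9, Hoxc13 and Hoxd13 in both libraries of control_B and of each set B knockdown; red, blue and grey mark groups called higher, lower and not called, and the band spans the 2 control values. Hoxb9, Hoxc13 and Hoxd13 share 8 columns called higher (shMed4, shMed10, shMed12, shMed19, shMed27, shMed28, shMed30 and shMed31), where Hoxa5 is high in shMed10 only; the Hoxa5 band, 1.18 to 2.02 RPKM, is wide.

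In shMed26, a middle module subunit that recruits elongation factors, the Hoxa genes rose together: Hoxa3 (2.64 and 2.45 RPKM), Hoxa4, Hoxa5, Hoxa7 and Hoxa10 (1.36 and 1.31 RPKM) were called higher, as were Hoxc13 and Hoxd13, while Hoxb1 fell to 0.282 and 0.124 RPKM. Over the tested members there were 8 higher and 1 lower calls of 17, where 16.1% and 13% of all tested genes were called. In shMed29 the same 5 Hoxa genes and Hoxb1 fell, and none of the 17 rose (8.83% of all genes higher, 7.37% lower). In shCcnc, against cyclin C, those 6 genes also fell and none of the 17 rose (9.27% and 7.26%). In shMed30, 11 rose and none fell (32.7% and 25.6%), and in shMed4, 9 rose and none fell (29.4% and 31.9%). The 11 include Hoxc12, which passed the filter through shMed30 alone. With no filter, 19 of 39 rose and none fell in shMed30 (21.8% and 15.7% of all genes). In shMed4, 16 of 39 rose and 1 fell with no filter (19.3% and 19.5%). Without control_B replicate 1, the lower calls came to 3 in shMed29 and 2 in shCcnc.

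Within the kinase module shMed12 differed from its partners. It had 10 members higher and 2 lower (26.9% and 31.2% of all tested genes), while shCdk8 had 1 higher and 4 lower (9.22% and 6.32%) and shMed13 had 0 and 3 (9.02% and 11.5%). Set against the mean of shCcnc, shCdk8 and shMed13, 12 members were higher in shMed12 and 1 lower (28.2% and 31.9%), in a contrast chosen after the values had been seen. Hoxb9 was at 2.21 RPKM in shMed12 and at 0.616 to 0.944 in the others (log2 difference 0.89 ± 0.07, limma adjusted p = 3.68e-12), and Hoxa5, the lower one, at 0.527 against 0.654 to 1.15 (-0.28 ± 0.10, adjusted p = 0.019). Without shMed12 replicate 1 Hoxa5 was no longer called. Between the 4 kinase knockdowns as a module and the 15 of head and middle, limma called 0 of 17 members, and 0.0% of all genes in either direction. Hoxa3, Hoxa4 and Hoxa7 were lower at an unadjusted p under 0.05 (log2 differences of -0.35 ± 0.16, -0.31 ± 0.11 and -0.21 ± 0.10), where 1.44% of all tested genes were higher and 1.59% lower at that level, and their ranges overlapped.

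Over the set B groups the levels of the members fell into blocks. Correlations of mean log2(RPKM + 1) were computed over 25 groups, shMed10 left out because it raised most members at once. The points share the depth and culture of each pair of libraries, and no test is given. Hoxa3, Hoxa4, Hoxa5, Hoxa7 and Hoxa10 correlated with each other at Pearson's r of 0.58 to 0.85. Hoxb9, Hoxc9, Hoxc12, Hoxc13, Hoxd8, Hoxd9 and Hoxd13 correlated at 0.51 to 0.93, although they lie in 3 clusters. Hoxb4, placed in neither block, correlated with these 7 at 0.51 to 0.73. The r between the 35 pairs across these blocks ran from -0.09 to 0.54 with a median of 0.25. Hoxb1 and Hoxb2 had an r of 0.79. The highest r of all, 0.93, joined Hoxd8 with Hoxd9 and Hoxc12 with Hoxc13. The 7 genes of the larger block were higher in 65 and lower in 1 of 175 pairs, and the 5 Hoxa genes higher in 15 and lower in 30 of 125. The larger block counts Hoxc12, which passed the filter through shMed30 alone. Its low control levels, and those of Hoxc9, Hoxd8 and Hoxd9, left little room for lower calls. Of the set B pairs of all tested genes, 15.7% were higher and 15.1% lower. The blocks were drawn after the values were seen.

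**Figure D4:**
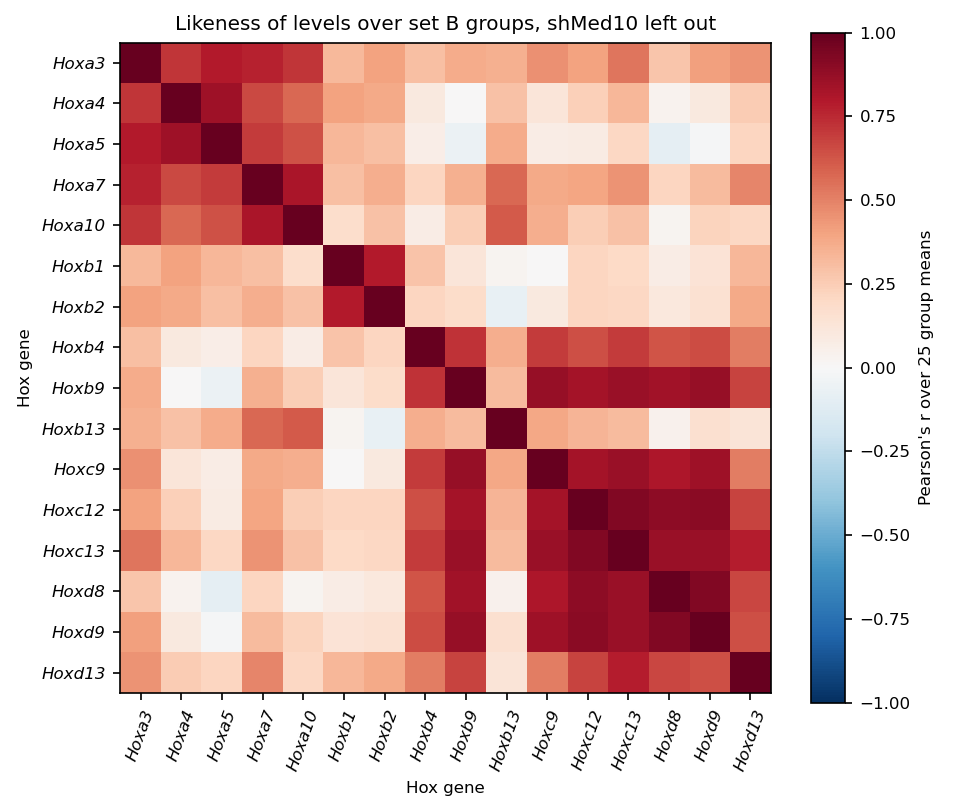
Pearson's r between the levels, as mean log2(RPKM + 1), of each pair of tested Hox genes over the 25 set B groups without shMed10. Hoxa3 to Hoxa10 form a square at the upper left (0.58 to 0.85), and Hoxb9 with the Hoxc and Hoxd genes a larger one at the lower right, broken by Hoxb13.

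Where all 7 genes of this larger block were called higher, the pluripotency genes also fell. The 8 ES cell markers summed to 618.0 to 628.0 RPKM in shMed12, 630.0 to 643.0 in shMed4, 695.0 to 702.0 in shMed28 and 710.0 to 761.0 in shMed30, which with shMed10 were the 5 lowest of set B, all below the 1260.0 to 1320.0 of control_B. The feeder markers summed to 5.09 to 5.31 RPKM in shMed28, 5.29 to 5.45 in shMed30, 5.45 to 5.82 in shMed4 and 9.99 to 10.3 in shMed12. In shMed19, all 7 genes of the block were also called higher (22.7% of all tested genes). There the ES cell markers summed to 827.0 to 872.0 RPKM, and the feeder markers to 3.57 to 3.67 against 2.93 to 3.23 in control_B. In shMed17, 5 of the 7 were higher (23.2%), with feeder markers at 3.22 to 3.5. In shMed27, 5 of the 7 were also higher (20.6%), with ES cell markers at 968.0 to 994.0 RPKM and feeder markers at 4.96 to 5.85. In shMed31, 4 of the 7 were higher, with ES cell markers at 1160.0 to 1180.0 RPKM. Of the 8 ES cell markers, 1 was called higher and 4 lower in shMed31 (17.4% and 11.8% of all tested genes). Col1a1, a fibroblast collagen, was at 0.386 RPKM in control_B and 3.91 in shMed12, while Col6a3 did not exceed 0.0328 RPKM in any library. In shMed26, where the Hoxa genes rose, the ES cell markers summed to 1140.0 RPKM and the feeder markers to 3.47 to 3.51. Of the 8 ES cell markers, 6 were called lower and 0 higher in shMed26 (13% and 16.1% of all tested genes). In shMed29 the ES cell markers summed to 1250.0 to 1310.0 RPKM and the feeder markers to 2.35 to 2.56. The part of these cell type markers in the Hox values was not tested.

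Partners and regulators of Hox genes were followed through lists. Of 9 cofactors of the TALE class, which bind DNA with Hox proteins, 6 rose and 2 fell in shMed10, 4 rose and 3 fell in shMed12, and none rose and 4 fell in shMed29. Of all tested genes, 31.2% rose and 33.6% fell in shMed10, 26.9% and 31.2% in shMed12, and 8.83% and 7.37% in shMed29. Meis2 was at 7.02 RPKM in shMed10 and 1.65 in control_B (log2 fold change 1.60 ± 0.07, limma adjusted p = 2.75e-18) and at 1.84 in shMed12 (0.10, not called). Meis1 was at 6.22 RPKM in shMed10 and 5.58 in shMed26, against 3.91 (0.56 ± 0.07 and 0.42 ± 0.07), but fell to 3.35 in shMed12 (-0.18 ± 0.07). In shMed26, Meis1 was the 1 cofactor of the 9 that rose, and 3 fell (16.1% and 13% of all tested genes). Meis2 was among those that fell, at 1.05 RPKM (-0.37 ± 0.07).

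Of the Cdx and related homeobox genes 3 of 8 were tested. Cdx2, which activates posterior Hox genes, rose in shMed26 (4.39 RPKM against 2.18, log2 fold change 0.76 ± 0.12) and in shMed10 (3.62, 0.54 ± 0.12) and was at 2.00 in shMed12, not called. Cdx1 rose in shMed12 (3.40 RPKM against 1.53, 0.80 ± 0.13) and shMed10 (2.73, 0.57 ± 0.13). Gsx1, a ParaHox gene of the forebrain, was at 0.668 RPKM in shMed10 and 0.208 in shMed12 against 4.73 in control_B, and at 8.97 in shMed26 (0.81 ± 0.12). Both Cdx genes also rose in shMed4, Cdx2 to 2.89 RPKM (0.29 ± 0.12) and Cdx1 to 3.13 (0.71 ± 0.13).

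The RNAs beside the Hoxa cluster did not move as one. Halr1, a long noncoding RNA transcribed beside the cluster and the most abundant RNA of this list, was at 27.3 RPKM in control_B and fell to 12.0 in shMed10, 12.3 in shMed26, 13.7 in shMed12 and 19.6 in shMed29. It fell in knockdowns where the Hoxa genes rose as well as where they fell. Hotairm1, an antisense RNA of the same cluster, was at 4.74 RPKM in control_B and 12.0 in shMed10 (log2 fold change 1.19 ± 0.23, limma adjusted p = 3.37e-05), and at 7.62 in shMed26 (0.59 ± 0.23, adjusted p = 0.0493). Of 16 tested genes that flank the clusters, 2 rose and 7 fell in shMed10 (31.2% and 33.6% of all tested genes). Hnrnpa3 was at 23 RPKM in control_B and 15.8 in shMed10 (-0.51 ± 0.03), Cbx1 at 67.0 and 49.1 (-0.44 ± 0.04) and Calcoco2 at 4.05 and 3.82 (-0.06, not called).

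Among 20 Polycomb genes, 7 rose and 11 fell in shMed10 (31.2% and 33.6% of all tested genes), and 4 rose and 12 fell in shMed12 (26.9% and 31.2%). Jarid2, a subunit that helps place the repressive complex, was at 117.0 RPKM in control_B, 60.9 in shMed10 (-0.93 ± 0.02), 57.6 in shMed12 (-1.01 ± 0.02) and 114.0 in shMed26 (-0.03, not called). Eed, a core subunit, was at 73.1 RPKM in control_B and 44.5 in shMed10 (-0.71 ± 0.04), and Pcgf2 at 22.7 and 17.9 (-0.32 ± 0.04). Of 13 Trithorax and demethylase genes 4 rose and 6 fell in shMed10, against the same shares of all genes. Dpy30 was at 88.1 RPKM in control_B and 49.6 in shMed10 (-0.82 ± 0.06), Ash2l at 88.0 and 71.3 (-0.30 ± 0.03) and Kmt2c at 6.49 and 4.81 (-0.37 ± 0.08). Both lists moved in both directions.

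Of 13 tested genes of the retinoic acid pathway 6 rose and 4 fell in shMed10 (31.2% and 33.6% of all tested genes). Its receptors Rarg (71.1 RPKM in control_B, 28.8 in shMed10, -1.28 ± 0.04) and Rara (12.5 and 8.74, -0.47 ± 0.07) fell, as did its target Stra8 (6.24 and 2.70, -0.97 ± 0.13). These 3, named because they were called in the most knockdowns, are all among the 4 that fell. The median log2 fold change of the list in shMed10 was 0.13. Of 7 tested posterior and primitive streak genes 4 rose and none fell in shMed10, and 5 and none in shMed12 (26.9% and 31.2% of all tested genes). Wnt3, the signal that starts the primitive streak, was at 6.21 RPKM in shMed10 and 5.36 in shMed12 against 1.18 (1.73 ± 0.09 and 1.55 ± 0.09). Wnt8a was at 6.39 RPKM in shMed10 against 2.48 (1.09 ± 0.12), and Eomes at 2.29 against 2.28 (not called).

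In set A each knockdown had 1 library, and the spread came from the control_A pair alone. No member passed the test against control_A in any of the 20 knockdowns (limma, 0 of 340 pairs, smallest adjusted p = 0.0605), where 0.0031% and 0.0411% of the pairs of all genes were called higher and lower. Those calls were in shMed23 (0.0621% of genes higher) and shMed16 (0.823% lower). At an unadjusted p under 0.05, 60 of the 255 TFIID pairs were higher and 2 lower, where 7.49% and 4.96% of the pairs of all genes were, and 5 of the 85 tail pairs were higher and 3 lower (5.4% and 4.77%). TFIID libraries lay above both control_A libraries in 166 of 255 pairs (65.1%, and 42.2% for all genes), and tail libraries in 37 of 85 (43.5%, and 35.6%). The 20 replicate 1 libraries, set aside because their targets were not low, also lay above both controls for some members. Of these 20, 16 did for Hoxd8, 15 for Hoxa10 and 14 for Hoxb9, but 0 for Hoxb13, where 14 lay below both. Other members were mixed: 7 libraries lay above and 9 below for Hoxa5, and 6 above and 12 below for Hoxc12. No share over all genes is given for these libraries, so the counts are not read as a result about Hox genes. The part of the knockdowns in the TFIID values was not tested. All these pairs share the same 2 control libraries. With the spread taken from all 80 libraries, limma called 58 of 340 pairs higher and 2 lower, where 8.98% and 6.6% of the pairs of all genes were.

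The libraries described here are those of shTaf12, which the design text names as a key subunit, and of shTbp and shTaf6. In the shTaf12 library 16 of 17 members were above both controls (46.8% of all tested genes), with Hoxd8 at 2.52 RPKM (control_A 0.601 and 0.523) and Hoxd9 at 1.92 (0.469 and 0.790). The log2 fold changes were 1.17 ± 0.12 and 0.85 ± 0.16, neither of them past the adjusted threshold. In the shTbp library 14 were above both controls (41.2%), led by Hoxc13 at 4.12 RPKM (1.20 and 1.80, 1.04 ± 0.19) and Hoxb9 at 2.01 (0.715 and 0.655, 0.84 ± 0.12). In the shTaf6 library 14 were too (46.6%), with Hoxa10 at 1.39 RPKM (0.437 and 0.421, 0.74 ± 0.11). The shTaf2, shTaf8 and shTaf10 libraries also had 14 (41.9%, 39.9% and 50.6%). In shTaf11 and shTaf4, by contrast, 2 and 3 members were above both controls (38.1% and 34.4% of all tested genes) and 9 and 8 below (28.7% and 30.8%). Taf3 stood apart: Hoxa3 at 2.07 RPKM and Hoxa5 at 1.73 were the highest of set A, while Hoxc13 at 1.45 was the lowest of the 15 TFIID libraries.

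Over the 20 libraries, log2 fold changes against control_A ran from -0.35 to 0.52 for Hoxa4, -0.14 to 0.50 for Hoxa7, -0.10 to 0.30 for Hoxb1, -0.08 to 0.22 for Hoxb2, -0.19 to 0.54 for Hoxb4, -0.42 to 0.37 for Hoxb13, -0.16 to 0.75 for Hoxc9, -0.22 to 0.29 for Hoxc12 and -0.16 to 0.51 for Hoxd13. The lowest values of Hoxd8 (-0.05) and Hoxb2 were in shTaf11, and those of Hoxb9 (-0.33) and Hoxd9 (-0.22) in shTaf9. Those of Hoxa3 (-0.11), Hoxa4, Hoxa7 and Hoxa10 (-0.07) were in shMed24. Hoxb1, the gene that rose most in shMed10, stayed at 0 to 0.314 RPKM in all 20.

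Hoxa genes were higher after TFIID than after tail knockdowns, in a comparison that uses no control. Hoxa5 had a lowest, median and highest level of 0.599, 1.10 and 1.73 RPKM over the 15 TFIID libraries and of 0.307, 0.464 and 0.719 over the 5 tail libraries. The ranges overlapped, and 13 of the 15 TFIID libraries were above every tail library. The log2 difference was 0.50 ± 0.10 (limma adjusted p = 0.0103). Hoxa10 was at 0.421, 0.804 and 1.39 RPKM in TFIID and 0.363, 0.456 and 0.654 in tail libraries (0.32 ± 0.09, adjusted p = 0.042), and this call was lost when any 1 of the 5 tail libraries was left out (adjusted p = 0.0509 to 0.115). These were 2 of 17 members, where 4.28% of all tested genes were higher in TFIID and 2.45% lower. Hoxa3, Hoxa4 and Hoxa7 were higher at an unadjusted p only (0.31 ± 0.12, 0.22 ± 0.10 and 0.22 ± 0.08), so that 5 of 17 were higher and 0 lower at that level, where 17.0% and 8.51% of all tested genes were. Hoxc13 gave 0.01 ± 0.15, not called.

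**Figure D5:**
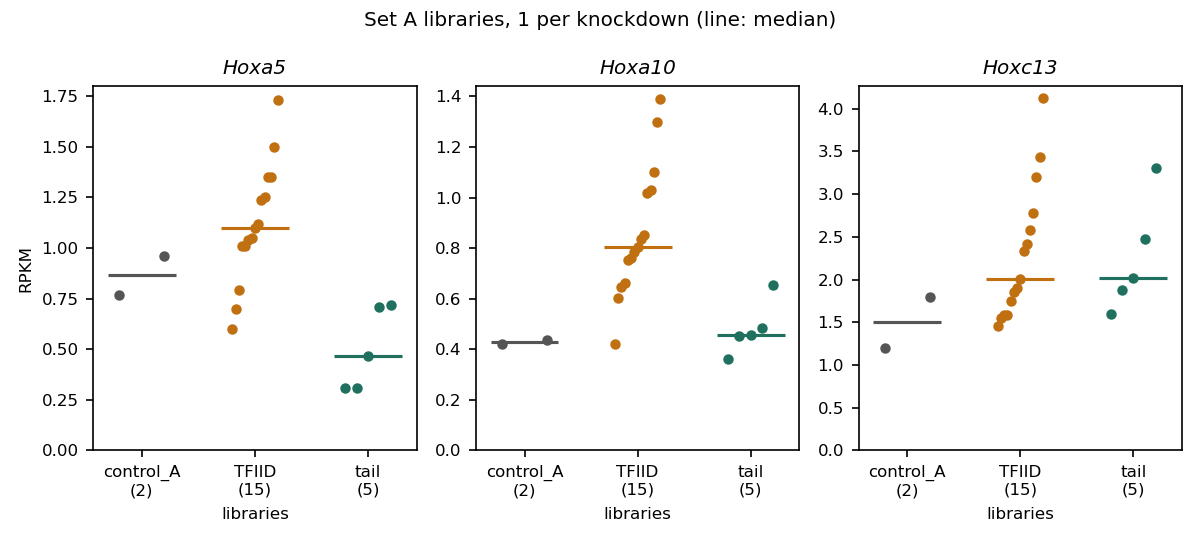
RPKM of Hoxa5, Hoxa10 and Hoxc13 in the 2 control_A libraries, the 15 TFIID and the 5 tail knockdown libraries of set A, 1 point per library, with the median as a line; points are spread sideways by rank. The tail libraries lie low for Hoxa5, 0.307 to 0.719 RPKM against 0.599 to 1.73 in TFIID, and among the TFIID values for Hoxc13.

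In set C the targets did not fall in every library, which limits what its labels can carry: Med1 stood at 66.0% and 97.9% of control_C in the libraries labelled shMed1 replicate 1 and 2, and Med14 at 61.5% and 99.1% in those labelled shMed14. Hoxc13 was at 0.679 and 3.42 RPKM in the libraries labelled shMed1, at 2.38 and 0.755 in those labelled shMed14 and at 0.715 and 0.548 in control_C, so 1 library of each label was high and the other was within the control range or just above it. The high library was replicate 2 for shMed1 and replicate 1 for shMed14, while the target was low in replicate 1 of both, so which libraries carry the labelled knockdown cannot be told apart. limma called 0 of 17 members in either comparison, 0 at an unadjusted p under 0.05, and 0.0% of all genes. The log2 fold changes of the 17 lay between -0.23 ± 0.16 (Hoxa4, shMed14) and 0.74 ± 0.51 (Hoxc13, shMed1).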

How the data were processed

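Values are RPKM per RefSeq transcript, deposited by the authors in 1 table per library. Reads were aligned with TopHat2 to mm9, per the submitters' processing notes. For the counting tool, its filters and its use of strand: not given in the sources used here. RPKM are shares of a library and hide any change that all genes share.

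Each table held 34995 lines, 140 of them repeats that were counted once. Of 34855 transcripts, 33477 were named from RefSeq (GRCm38.p6), 192 from GENCODE and 1186 stayed unnamed. Library depth was recovered from the steps of low values (99.9% of values of 3014 transcripts were whole reads within 0.1 reads) and used as a description. Tests were limma 3.58.1 (trend) in R 4.3.3 on log2(RPKM + 1), two-sided, with Benjamini-Hochberg adjustment (threshold 0.05) over the 12887 genes at or above 1 RPKM in at least 2 of the 80 libraries (21828 without that filter), with sets A, B and C fitted apart (1, 26 and 3 residual degrees of freedom). Fold changes on this scale understate changes of low genes. Kinase against head and middle, and TFIID against tail, took each knockdown as 1 value. Errors after ± are standard errors. Tests and depth recovery were tested on simulated data.

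For set A only replicate 2 libraries were used, as the targeted genes were not low in replicate 1. Named were the tested members and, from each gene list, the up to 3 genes called in the most set B knockdowns, except for a few results that are not reported here; counts over members and lists include every gene tested. The members, lists and modules were chosen with earlier results of these data known. Alternatives were another pseudocount, no filter, upper-quartile scaling, summed transcripts, wider fits, a replicate block and leaving out libraries.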

Additional observations from a re-analysis of the deposited data

Results flagged for a closer look

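Within Mediator modules, 8 values stood apart from the other knockdowns of the same module, by a gap to the nearest that was large against the whole range. In all, 85 combinations of gene and module were examined, and chance alone flags about 1 in 20. The middle module gave 4: in shMed10 Hoxb1 was at 3.18 RPKM (0.0759 to 0.425 in the 7 others), Hoxb2 at 1.77 (0.0668 to 0.335) and Hoxb4 at 1.10 (0.224 to 0.566), and in shMed7 Hoxb13 was at 1.39 (0.349 to 0.810). Hoxb1 and Hoxb2 were examined only because they passed the filter through shMed10, so the rate of 1 in 20 does not apply to them. The kinase module gave 2, both in shMed12: Hoxc9 at 0.438 RPKM (0.122 to 0.174 in the 3 others) and Hoxd9 at 0.933 (0.314 to 0.381). In the head module Hoxd8 was at 0.969 RPKM in shMed17 (0.318 to 0.498 in the 6 others). In the tail Hoxa4 was low in the single shMed24 library, at 0.103 RPKM (0.378 to 0.417 in the 4 others).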

How the results depend on the processing

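No call in set B changed direction under any alternative run. The 104 higher and 41 lower calls of set B became 53 and 3 in one fit of 100 libraries. The lower calls came to 26 without replicate 2 and to 37 without replicate 1, with 100 and 85 higher, and leaving out 1 control library gave 15 to 51 lower and 87 to 100 higher. Without shMed10 there were 89 and 41. With a replicate block there were 109 and 45. Over 325 pairs of set B groups the same-numbered libraries deviated together with a median correlation of 0.094 (145 pairs over 0.1), and replicate 2 was the deeper library in 26 of the 26 groups. In set A, the 0 higher calls became 3 with upper-quartile scaling, 58 (with 2 lower) in one fit of 80 libraries, 4 in one fit of 100 libraries, and 37 to 56 (with 0 to 1 lower) in the 80-library fit without 1 control library. In set C, 18 lower calls appeared against control_B, a comparison across sets whose control pairs themselves differed. No share over all genes is given here for these alternative runs of sets A, B and C. Their counts therefore describe only how the calls depend on the processing. The 2 TFIID calls against the tail fell to 1 with no filter and without any 1 of shMed15, shMed16, shMed23, shMed24 and shMed25. The contrasts of shMed10 and shMed12 with their modules gave 30 and 21 higher of 39 with no filter. Of all genes, 23.1% and 20% were higher in these contrasts with no filter. The 12 higher of shMed12 became 7 in one fit of 100 libraries, and its 1 lower call became 0 in both wider fits and ran from 0 to 1 without 1 of its libraries. The cause of these shifts was not tested. Depth limits the low members: 1 read on a kilobase is worth up to 0.058 RPKM, and Hoxc12, Hoxb2, Hoxc9 and Hoxb1 rest on medians of 4, 8, 10 and 12 reads.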
